A study of Mus musculus with 12 samples.

Results

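The small leucine-rich proteoglycans were examined through 9 genes, Dcn, Lum, Bgn, Fmod, Prelp, Ogn, Aspn, Podn and Omd, taken by name from the 33246 genes of the count table. All 9 were among the 14542 genes that passed the expression filter and were tested. Primary fibroblasts from the ears of 1-month-old C57BL/6 mice of both sexes were seeded at passage 2 on RGD-coupled alginate gels and their poly-A RNA was sequenced after 48 h in medium with 10% fetal bovine serum. The 4 groups of 3 biological replicates were 2-kPa elastic, 20-kPa elastic, 2-kPa viscoelastic and 20-kPa viscoelastic gels. Elastic gels were crosslinked covalently, and viscoelastic gels ionically with calcium, so that they relaxed stress slowly. Crosslinker and stress relaxation therefore changed together between the gel types and cannot be told apart. Within a gel type, stiffness was set by the crosslinker concentration, so stiffness and crosslinker dose cannot be told apart either. The comparisons asked whether stress relaxation altered the transcripts of these matrix genes at each stiffness, whether stiffness did so on each gel type, and whether the stiffness response depended on the gel type.

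Small leucine-rich proteoglycans are secreted proteins with a curved core of leucine-rich repeats, and several carry chondroitin, dermatan or keratan sulfate chains. They bind collagen as it assembles and thereby help set the diameter and spacing of fibrils, and they also hold growth factors such as TGF-β in the matrix. Decorin (Dcn), biglycan (Bgn) and asporin (Aspn) form one class of the family, with decorin and biglycan bearing chondroitin or dermatan sulfate. Fibromodulin (Fmod), lumican (Lum), PRELP (Prelp) and osteomodulin (Omd) form another, known for keratan sulfate and tyrosine sulfation. Osteoglycin (Ogn, also called mimecan) and podocan (Podn) belong to further classes. In skin and tendon, decorin, lumican and fibromodulin are known as regulators of collagen fibril growth, and several members are also made by chondrocytes.

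Many of the genes lie side by side in the mouse genome (GRCm38, GENCODE vM21 annotation). Aspn (chromosome 13, 49544443 to 49567565), Omd (49582462 to 49592822) and Ogn (49608046 to 49624501) follow each other on the plus strand behind the family member Ecm2, with gaps of 11.7, 14.9 and 15.2 kb and no whole protein-coding gene in between. Dcn (chromosome 10, 97479609 to 97518143, plus strand) is separated by 47.0 kb from Lum (97565128 to 97572703, plus strand), which is followed by the family members Kera and Epyc. Prelp (chromosome 1, 133910304 to 133921414, minus strand) and Fmod (134037254 to 134048277, plus strand) are 116 kb apart. Bgn (X chromosome, 73483602 to 73495933, plus strand) and Podn (chromosome 4, 108014791 to 108096445, minus strand) have no family member beside them. Exons of Prelp overlap the antisense gene Gm15851 over 350 bp (9.68% of its exon length), and exons of Aspn overlap Cenpp on the other strand over 7 bp. The strand setting of the read counting is not stated, so reads in these overlaps cannot be assigned with certainty.

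RefSeq promoter windows (assembly GRCm38.p6), each the 250 bases before an annotated start, were matched by symbol for 7 of the 9 genes, in 8 windows as Podn has a pair. The windows of the chromosome 13 neighbours are shown because their transcripts were closely alike over the samples (Pearson's r of 0.959 to 0.992). The window of Bgn, whose transcript changed little, is shown as well. All are on the plus strand, at chr13:49544193-49544442 for Aspn, chr13:49582212-49582461 for Omd, chr13:49607765-49608014 for Ogn and chrX:73483351-73483600 for Bgn, and the capitals mark the motifs searched for.
Aspn: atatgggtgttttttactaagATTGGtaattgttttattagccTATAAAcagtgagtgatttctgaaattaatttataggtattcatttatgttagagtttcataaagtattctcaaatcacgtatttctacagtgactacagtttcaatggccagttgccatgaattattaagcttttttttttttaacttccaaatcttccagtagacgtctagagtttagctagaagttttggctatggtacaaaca
Omd: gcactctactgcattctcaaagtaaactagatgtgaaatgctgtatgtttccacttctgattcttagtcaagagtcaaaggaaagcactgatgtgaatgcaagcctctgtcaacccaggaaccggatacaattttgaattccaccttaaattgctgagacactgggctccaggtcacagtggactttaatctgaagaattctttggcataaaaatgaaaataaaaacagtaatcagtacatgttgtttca
Ogn: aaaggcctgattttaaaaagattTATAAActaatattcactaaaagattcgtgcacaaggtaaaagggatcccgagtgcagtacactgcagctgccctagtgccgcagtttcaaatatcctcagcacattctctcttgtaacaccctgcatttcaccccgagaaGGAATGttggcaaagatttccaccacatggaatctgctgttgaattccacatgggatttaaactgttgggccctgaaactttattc
Bgn: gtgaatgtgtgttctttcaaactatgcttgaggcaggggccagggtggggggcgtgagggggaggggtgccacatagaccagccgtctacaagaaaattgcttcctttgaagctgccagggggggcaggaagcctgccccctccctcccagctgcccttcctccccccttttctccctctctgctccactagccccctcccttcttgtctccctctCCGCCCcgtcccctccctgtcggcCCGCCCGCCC
The TATA box (TATAAA) was searched for on the gene's strand only. The CCAAT box (these letters), the SP1 box (GGGCGG), the motif of TEAD factors (CATTCC) and the AP-1 motif by its name were searched for on both strands. Among all 32851 windows, 7.59% held the TATA box, 33.8% the CCAAT box, 32.7% the SP1 box, 12.6% the TEAD motif and 6.75% the AP-1 motif. The Aspn window held a TATA box from 207 to 202 bases before the start and a CCAAT box on the minus strand from 229 to 225, and the Ogn window held a TATA box from 227 to 222 and a TEAD motif on the minus strand from 86 to 81. The Bgn window held the SP1 box at 3 places on the minus strand, a pair of which overlap, and none of the motifs was found in the Omd window. The neighbours were AT-rich, with a GC content of 30% for Aspn, 38.4% for Omd and 42.0% for Ogn, while Bgn had 64.4% and the median of all windows was 52.4%. The motifs found in Aspn and Ogn were thus not all shared. All motifs are matches of letters at any place in the window, also those named TATA box. They say nothing of promoter function or of whether a factor was bound there.

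Libraries held between 36626221 and 43612804 counted reads, of which the 9 genes took 0.918% to 1.46%. Counts of single members ranged from 2336 for Podn to 332671 for Bgn, so counting error was small beside the spread between replicates. Values are CPM (counts scaled to library size) after TMM normalization, with the standard deviation (SD) over 3 replicates. Marker sums and the marker group means in this paragraph are the exception. They are CPM scaled by total counts alone, without TMM factors. Fold changes come from edgeR's quasi-likelihood test, and adjusted p-values were corrected by the Benjamini-Hochberg (BH) method over all 14542 genes. All 11 fibroblast markers passed the expression filter, as did 7 of 8 cartilage markers. Summed fibroblast markers lay between 23488 and 28786 CPM. Group means were at least 4030 CPM for each of Col1a1, Col1a2, Col3a1 and Vim, but at most 24.1 for Fap and 6.83 for Twist2, and the rest lay between. Summed cartilage markers reached 5352 to 7004 CPM on 2-kPa elastic, 4752 to 4962 on 20-kPa elastic, 5320 to 6906 on 2-kPa viscoelastic and 5611 to 7187 on 20-kPa viscoelastic gels, with group means of 2393 to 3068 CPM for Col2a1 and with Matn1 at or near 0. Summed markers of keratinocytes, endothelial cells, leukocytes, smooth muscle and pericytes, Schwann cells and melanocytes, adipocytes and bone each reached at most 12.9 CPM, and those of tendon 27.9 to 56.2 CPM. In bulk RNA, fewer cells of a type and less RNA per cell cannot be told apart. Some libraries were extreme for most members at once. Replicate 1 of the 2-kPa elastic group had the lowest value of its group for 9 of 9 genes and replicate 1 of the 20-kPa elastic group the highest for 9 of 9, while replicate 2 was highest for 7 genes in each viscoelastic group.

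Biglycan dominated the family. Per kilobase of exon, the mean over all 12 samples was 1129 ± 89.4 CPM for Bgn, the 8th highest of 13684 genes ranked, and Bgn made up 40.2% of the family's CPM per kilobase. A middle tier of 5 genes followed, with 341 ± 84.6 CPM per kilobase for Aspn, 333 ± 128 for Ogn, 328 ± 77.9 for Lum, 322 ± 75.7 for Fmod and 220.1 ± 19.7 for Prelp (SD over 12 samples). The first 4 of these differed from one another by less than their spread and ranked 61 to 67, whereas Prelp ranked 99. Dcn (58.7 ± 15.1 CPM per kilobase), Omd (51.3 ± 19.9) and Podn (21.9 ± 7.07) formed the low tier, with Dcn at rank 568 and Podn at rank 1857. This order applies to the scale per kilobase, in which exon length is divided out, taken as the merged exons of all annotated transcripts of a gene. By CPM alone Dcn ranked 383 and Omd 1675, and Bgn made up 54.2% to 66.4% of the family's CPM in single samples. The summed CPM of the family was 9399 to 11651 in the 6 elastic samples and 11322 to 14362 in the 6 viscoelastic samples.

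**Figure D1:**
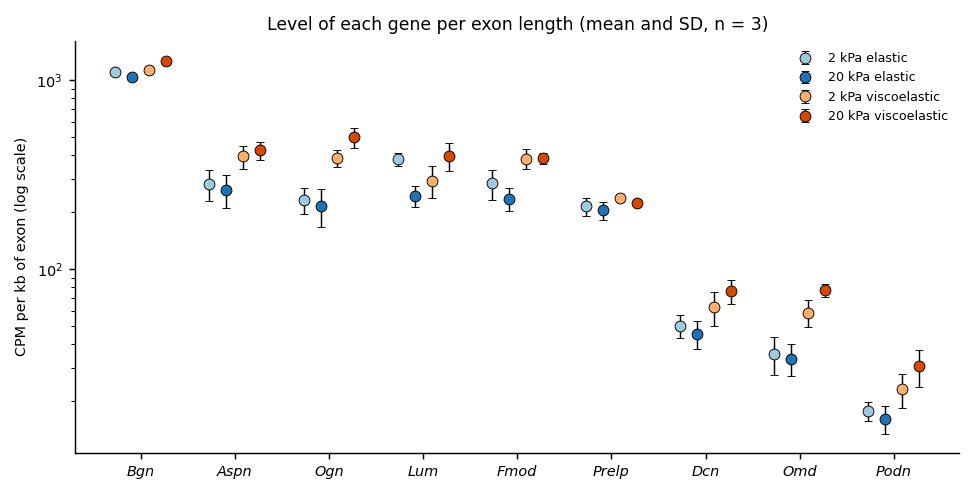
Level of each gene as TMM-normalized CPM per kilobase of exon on a log axis, with points for the group means and bars for the SD of 3 replicates. Bgn stood above the other genes in every group and Podn below them, and the groups of Prelp were the closest together among the genes under Bgn.

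Osteoglycin and osteomodulin, the neighbours on chromosome 13, were the members most strongly up-regulated on viscoelastic gels. Ogn, which encodes a proteoglycan first known from bone, had 519.95, 564 and 699 CPM on the 2-kPa elastic gels, and 904, 1106 and 969 CPM on the viscoelastic ones. At 20 kPa it had 688, 528 and 443 CPM on elastic gels, and 1137, 1442 and 1257 CPM on viscoelastic gels. Each of the 6 viscoelastic samples was higher than each of the 6 elastic samples. The means were 594 ± 93.1, 553 ± 124, 993 ± 103 and 1279 ± 153 CPM (SD, n = 3) on 2-kPa elastic, 20-kPa elastic, 2-kPa viscoelastic and 20-kPa viscoelastic gels. On viscoelastic gels Ogn rose by 0.74 on the log2 scale at 2 kPa (SE 0.146, edgeR adjusted p = 0.00306). At 20 kPa it rose by 1.21 (SE 0.148, edgeR adjusted p = 0.000115), which is 2.31-fold.
Omd, which encodes a keratan sulfate proteoglycan of mineralizing tissue, followed the same order at a lower level. It had 63.8, 75.9 and 99.4 CPM on the 2-kPa elastic gels, and 116, 156 and 124 CPM on the viscoelastic ones. At 20 kPa it had 91.1, 73.5 and 61.9 CPM on elastic gels, and 159, 185 and 178 CPM on viscoelastic gels. Again no elastic sample reached the lowest viscoelastic sample. The log2 fold changes were 0.73 at 2 kPa (SE 0.156, edgeR adjusted p = 0.00476) and 1.20 at 20 kPa (SE 0.157, edgeR adjusted p = 0.000141).

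Asporin, the third of the chromosome 13 members, and fibromodulin rose at both stiffnesses, though less. Aspn, whose product competes with decorin for collagen and binds TGF-β, had 546, 657 and 794 CPM on the 2-kPa elastic gels, and 902, 1068 and 814 CPM on the viscoelastic ones. At 20 kPa it had 739.7, 607 and 502 CPM on elastic gels, and 890.4, 1102 and 999 CPM on viscoelastic gels. The groups did not overlap at either stiffness, but at 2 kPa the highest elastic and the lowest viscoelastic sample were close. The log2 fold changes were 0.48 at 2 kPa (edgeR adjusted p = 0.0341) and 0.69 at 20 kPa (edgeR adjusted p = 0.00277).
Fmod, whose product binds collagen and its crosslinking enzyme, had 749, 999 and 1074 CPM on the 2-kPa elastic gels, and 1102, 1385 and 1322 CPM on the viscoelastic ones. At 20 kPa it had 848, 829 and 654 CPM on elastic gels, and 1327, 1169 and 1319 CPM on viscoelastic gels. Here too the viscoelastic samples were the higher ones at each stiffness, with the narrower gap at 2 kPa. The log2 fold changes were 0.43 at 2 kPa (edgeR adjusted p = 0.0300) and 0.71 at 20 kPa (edgeR adjusted p = 0.00104). The 2-kPa calls of Aspn and Fmod were not stable when single libraries were left out. Without replicate 1 of the 2-kPa elastic group, the library low for all 9 genes, their log2 fold changes were 0.35 and 0.29 and neither passed (edgeR adjusted p = 0.162 and 0.144). Both calls were also lost without replicate 2 of the 2-kPa elastic group, though the log2 fold changes stayed at 0.47 for Aspn and 0.48 for Fmod. Over all genes, calls in this comparison fell from 2892 to 1545 without replicate 1 and to 1924 without replicate 2 of that group. Without replicate 2 of the 2-kPa viscoelastic group both calls were lost too, and without its replicate 3 that of Fmod. Ogn and Omd passed in each of these cases.

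Decorin and podocan rose on viscoelastic gels at 20 kPa. Dcn, the classical collagen-binding proteoglycan of skin, had 316, 237 and 243 CPM on the 20-kPa elastic gels, and 395, 520.2 and 421 CPM on the viscoelastic ones. At 2 kPa the values were 252, 293 and 332 CPM on elastic gels, and 303, 448 and 351 CPM on viscoelastic gels. The groups were separate at 20 kPa and overlapped at 2 kPa. The log2 fold change was 0.75 at 20 kPa (SE 0.149, edgeR adjusted p = 0.00175). At 2 kPa it was 0.33 with a 95% interval of 0.012 to 0.65, which did not pass (edgeR adjusted p = 0.132).
Podn, a lowly expressed member whose product is known to restrain the growth of smooth muscle cells, had 68.95 ± 11.7 CPM on the 20-kPa elastic gels, and 131 ± 29.4 CPM on the viscoelastic ones (SD, n = 3). Its log2 fold change was 0.92 at 20 kPa (edgeR adjusted p = 0.000908) and 0.39 at 2 kPa (95% interval 0.036 to 0.75, edgeR adjusted p = 0.112). The 3 viscoelastic samples at 20 kPa were spread from 109.6 to 164 CPM, and replicate 2 was far above the others. Without replicate 1 of the 2-kPa viscoelastic group, the lowest of that group for 7 members, Dcn and Podn passed at 2 kPa as well.

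**Figure D2:**
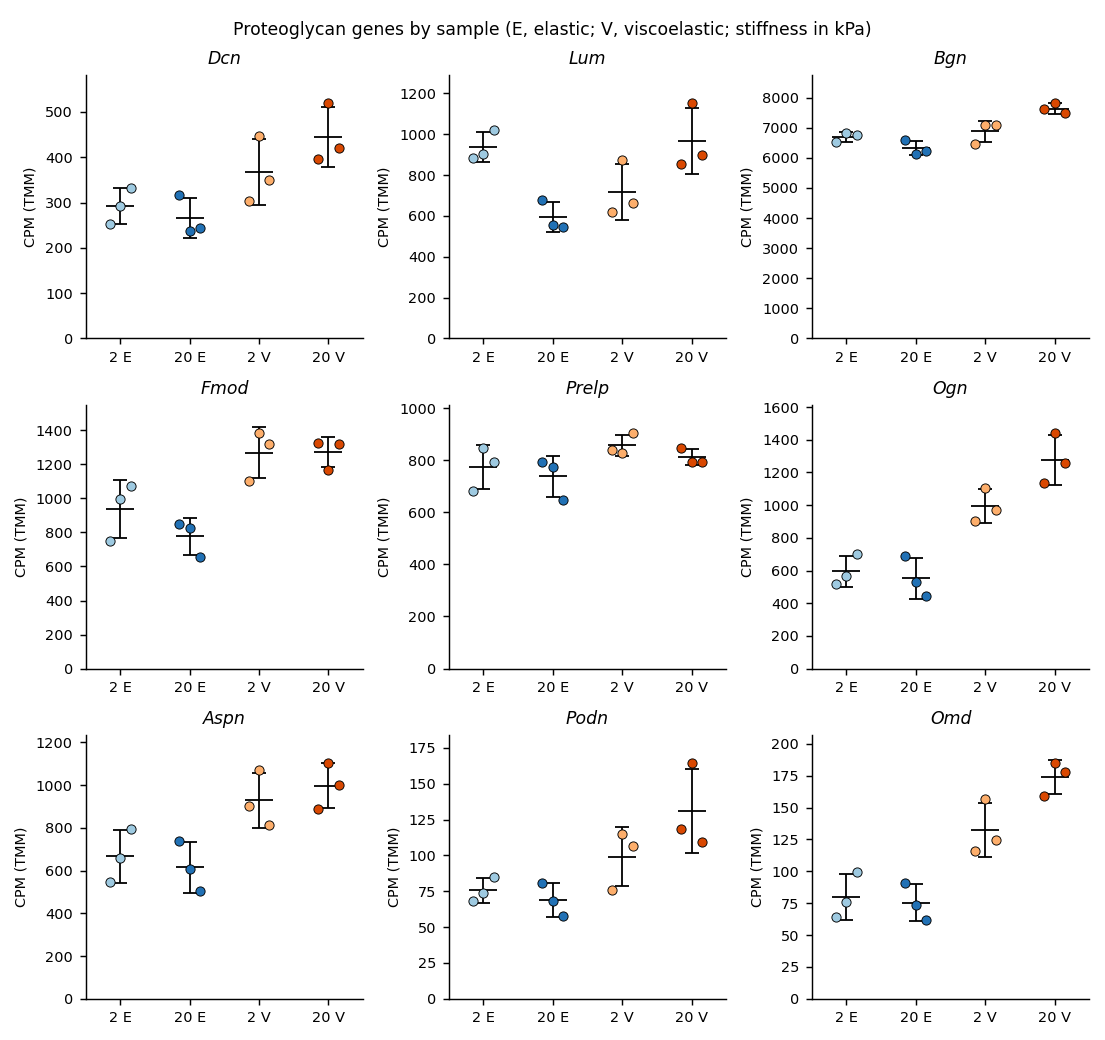
TMM-normalized CPM of each gene in the 12 samples, with points for samples (replicates 1 to 3 from left to right within a group), a horizontal mark for the mean and bars for the SD of 3 replicates. Ogn, Omd, Aspn and Fmod were higher in all 6 viscoelastic than in all 6 elastic samples, and Lum was high on 2-kPa elastic and 20-kPa viscoelastic gels.

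Lumican was the member whose response to stiffness differed between the gel types. Lum, whose product spaces collagen fibrils in cornea and skin, had 884, 904 and 1021 CPM on the 2-kPa elastic gels, and 680.1, 557 and 545 CPM on 20-kPa elastic gels. On viscoelastic gels it had 618, 875 and 663 CPM at 2 kPa and 853, 1154 and 896 CPM at 20 kPa. The elastic groups were separate, with the stiffer gel lower, while the viscoelastic groups were in the opposite order and overlapped. The means were 936 ± 73.99, 594 ± 74.9, 719 ± 137 and 968 ± 163 CPM (SD, n = 3) on 2-kPa elastic, 20-kPa elastic, 2-kPa viscoelastic and 20-kPa viscoelastic gels. On elastic gels Lum fell with stiffness, with a log2 fold change of −0.66 (SE 0.136, edgeR adjusted p = 0.00544). On viscoelastic gels the log2 fold change with stiffness was 0.43 with a 95% interval of 0.14 to 0.72, which did not pass over all genes (edgeR adjusted p = 0.103). The interaction, taken as the stiffness effect of viscoelastic less that of elastic gels, was 1.09 on the log2 scale (SE 0.192, edgeR adjusted p = 0.00297). Leaving out each sample in turn gave interactions of 0.94 to 1.25, all past the threshold. Read the other way, at 20 kPa viscoelastic gels had more Lum than elastic gels, by 0.70 (edgeR adjusted p = 0.00140). At 2 kPa the log2 fold change was −0.38 (edgeR adjusted p = 0.0597), and without replicate 2 of the 2-kPa viscoelastic group it was −0.55 and passed. It also passed without replicate 2 of the 20-kPa viscoelastic group, which enters only the shared spread, and DESeq2 called it lower.

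Biglycan and PRELP were the least changed. Bgn, whose product binds collagen and is also a ligand of Toll-like receptors, had 6581, 6136 and 6244 CPM on the 20-kPa elastic gels, and 7619, 7833 and 7478 CPM on the viscoelastic ones. These groups did not overlap, and the log2 fold change was 0.27 (SE 0.0791, edgeR adjusted p = 0.0156), or 1.21-fold. Without replicate 2 of the 20-kPa elastic group it was 0.25 and did not pass. At 2 kPa Bgn had 6701 ± 158 CPM on elastic gels, and 6881 ± 363 CPM on viscoelastic gels (SD, n = 3), a log2 fold change of 0.038 with a 95% interval of −0.13 to 0.21 (edgeR adjusted p = 0.770).
Prelp, whose product anchors basement membranes to collagen through heparan sulfate, had 774 ± 85.4, 738 ± 78.6, 857 ± 40.8 and 812 ± 31.6 CPM (SD, n = 3) on 2-kPa elastic, 20-kPa elastic, 2-kPa viscoelastic and 20-kPa viscoelastic gels. Its log2 fold change between gel types was 0.15 at 2 kPa (95% interval −0.046 to 0.34, edgeR adjusted p = 0.269) and 0.14 at 20 kPa (95% interval −0.056 to 0.33, edgeR adjusted p = 0.262). Averaged over both stiffnesses it was 0.14 (95% interval 0.0055 to 0.28, edgeR adjusted p = 0.0910), and with scaling by total counts alone it was 0.18 and passed (edgeR adjusted p = 0.0393). In the other comparisons Prelp was called neither as reported nor under any alternative run.

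Across the 9 genes, viscoelastic gels raised 4 at 2 kPa (Ogn, Omd, Aspn and Fmod) and 8 at 20 kPa (the members other than Prelp), and lowered none. Among all tested genes 8.77% were called higher and 11.1% lower on viscoelastic gels at 2 kPa, and 17.4% and 16.1% at 20 kPa. The count at 2 kPa fell to 2, Ogn and Omd, without replicate 1 or replicate 2 of the 2-kPa elastic group, and rose to 6 without replicate 1 of the 2-kPa viscoelastic group. At 2 kPa, 4 members were higher on viscoelastic gels without any overlap between the samples, as were 16.6% of all genes, and 1 member, Lum, was lower without overlap, as were 19.7%. At 20 kPa, 8 members were higher without overlap, as were 26.2% of all genes. The median log2 fold change of the members was 0.39 at 2 kPa and 0.71 at 20 kPa, beside −7.47e-05 and 0.016 over all tested genes. Averaged over both stiffnesses, 7 members were called higher and none lower, beside 19.6% and 20.4% of all genes, and the 2 others were Lum and Prelp. In this average 4 members (Ogn, Omd, Aspn and Fmod) had all viscoelastic samples above all elastic samples, as did 5.86% of all genes. Bgn passed the average narrowly, with a log2 fold change of 0.16 (edgeR adjusted p = 0.0372), and lost its call when any of 9 of the 12 samples was left out.

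**Figure D3:**
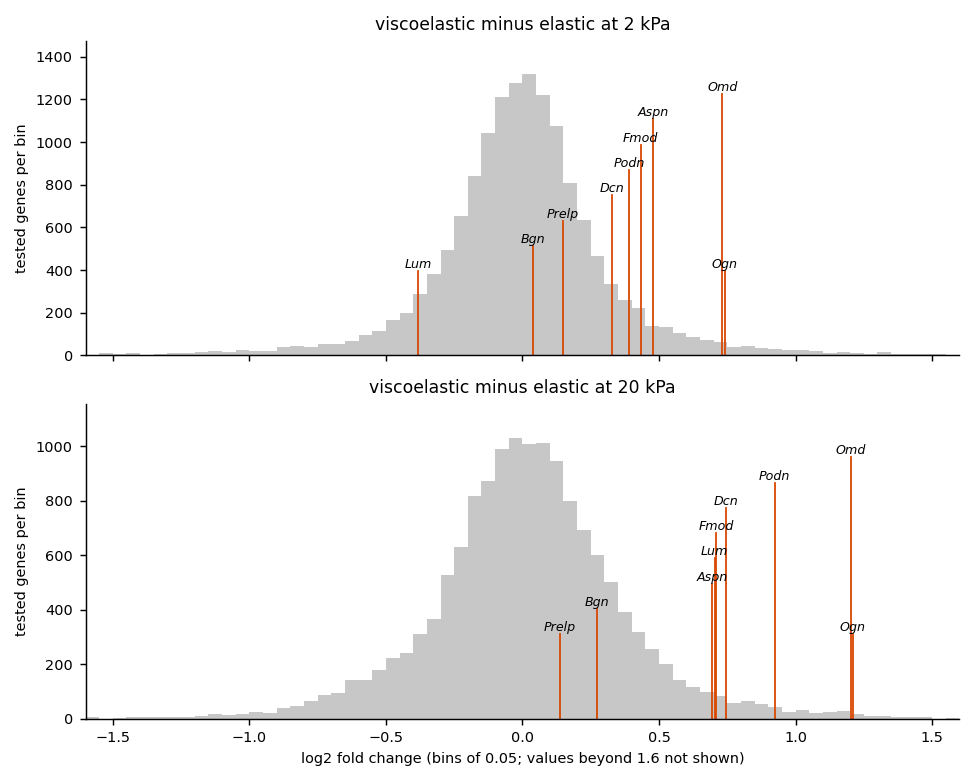
Number of tested genes per bin of 0.05 in log2 fold change between viscoelastic and elastic gels at 2 kPa (top) and 20 kPa (bottom), with the 9 members as lines whose heights serve only to place the names. The members' median was 0.39 at 2 kPa and 0.71 at 20 kPa, Ogn and Omd lay farthest to the right at both stiffnesses, and Lum moved from the left side at 2 kPa to the right side at 20 kPa.

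Few members were called with stiffness. On elastic gels Lum was the 1 member called, as lower on 20 kPa, beside 7.14% of all genes called lower and 6.81% called higher, and it was also the 1 member without overlap, as were 17.8% of all genes in that direction. All 9 log2 fold changes with stiffness on elastic gels were below 0, with a median of −0.11 beside −0.0083 over all genes. The signs of Prelp, Ogn, Aspn and Omd reversed when replicate 3 of the 20-kPa elastic group, the lowest for 7 members, was left out. That of Prelp also reversed without replicate 2, and those of the other 3 without replicate 3, of the 2-kPa elastic group. Fmod, at −0.28 (95% interval −0.55 to 0.0032, edgeR adjusted p = 0.179), came nearest to passing among the others, and without replicate 1 of the 2-kPa elastic group it was −0.42 and passed (edgeR adjusted p = 0.0492).
On viscoelastic gels none of the 9 passed edgeR's test, beside 1.58% of all genes called higher and 0.695% called lower on 20 kPa. At an unadjusted p under 0.05 there were 4 (Lum, Omd, Ogn and Podn), and DESeq2 called 1, Lum, which edgeR also called without replicate 2 of the 2-kPa viscoelastic group (0.59). The log2 fold changes were 0.39 for Omd (95% interval 0.067 to 0.72), 0.36 for Ogn (0.054 to 0.67) and 0.40 for Podn (0.049 to 0.75). Without overlap, 3 members were higher on 20 kPa (Bgn, Ogn and Omd), as were 13.6% of all genes. The median was 0.28, beside 0.0079 over all genes.
The difference between these stiffness responses, tested as the interaction, passed for Lum alone, where 4.45% of all genes passed with a positive value and 3.12% with a negative one. For the other 8 members it ran from −0.01 for Prelp (95% interval −0.28 to 0.26) to 0.53 for Podn (0.032 to 1.03), and Ogn passed without replicate 1 of the 20-kPa elastic group (0.63). DESeq2 also called the interaction of Bgn, at 0.22. That 8 members were called at 20 kPa and 4 at 2 kPa therefore does not show a larger effect of viscoelasticity on stiff gels for members other than Lum. The comparisons share samples, as each group enters a stiffness and a gel-type comparison.

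**Figure D4:**
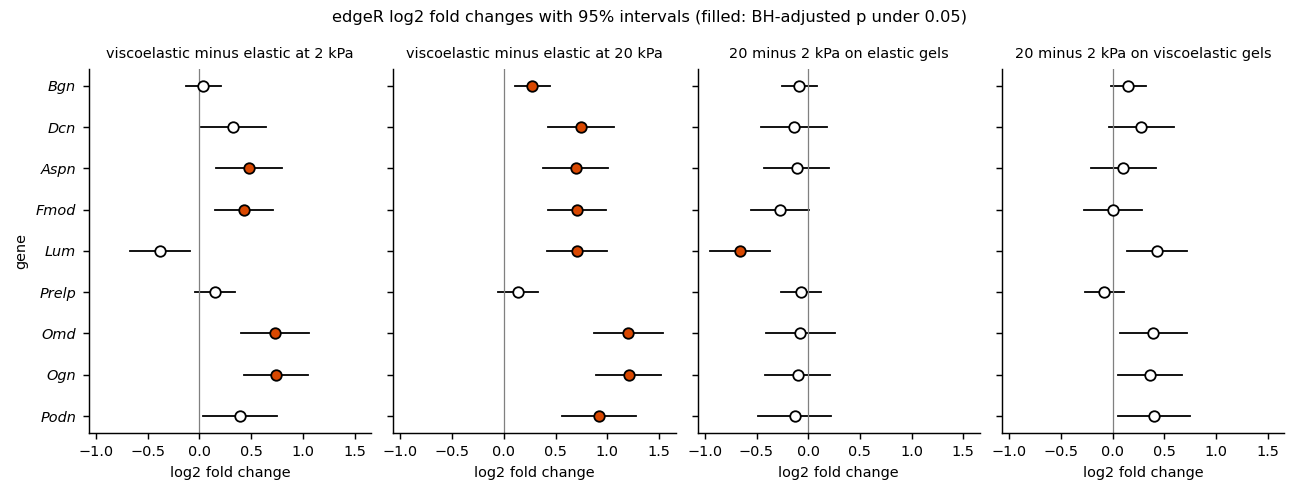
edgeR log2 fold changes of each gene in the 4 comparisons of a pair of groups, with bars for the 95% interval and filled points where the BH-adjusted p was under 0.05. Of the 9 genes, 4 were called between gel types at 2 kPa, 8 at 20 kPa, 1 with stiffness on elastic gels (Lum, lower) and 0 with stiffness on viscoelastic gels.

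Cartilage markers moved with some of these comparisons. Between gel types at 20 kPa, 4 of 7 tested cartilage markers were called higher and none lower, beside 17.4% and 16.1% of all genes. The log2 fold changes were 0.94 for Cnmd, 0.87 for Col9a1, 0.56 for Matn3 and 0.36 for Hapln1, while Col2a1 had 0.32 (edgeR adjusted p = 0.0654). At 2 kPa, where 4 members rose, no cartilage marker was called higher and 1, Acan, was lower (−0.47), beside 8.77% and 11.1% of all genes. With stiffness on elastic gels 4 cartilage markers were called lower, beside 7.14% of all genes, and all 7 values were below 0. The interaction was above 0 for all 7, with a median of 0.47. It passed for 3, as it did for Lum, beside 4.45% of all genes with a positive value. The 20-kPa elastic group had both the lowest members, for all 9 genes, and the lowest cartilage sums. Within 3 of the 4 groups, the library lowest for most members (replicate 1 of 2-kPa elastic, replicate 3 of 20-kPa elastic and replicate 1 of 2-kPa viscoelastic gels) also had the lowest cartilage sum. Replicate 3 of the 2-kPa elastic and replicate 2 of the 2-kPa viscoelastic group were highest in both. In the 20-kPa elastic group the sums were close together, and replicate 1, highest for 9 members, had 4927 CPM by total counts beside 4962 in replicate 2. In the 20-kPa viscoelastic group, by contrast, replicate 2 was highest for 7 members and lowest in the cartilage sum. Replicate 1 of that group was lowest for 5 members and highest in the cartilage sum (7187 CPM). The part of cartilage-like cells in the results was not tested.
The summed tendon markers differed with the gel type and with stiffness on elastic gels, at far lower levels, and Mkx had the largest changes. The sum of Mkx, Scx and Tnmd was 27.9 to 30.1 CPM on 2-kPa elastic, 32.8 to 42.5 on 20-kPa elastic, 42.7 to 46.2 on 2-kPa viscoelastic and 43.5 to 56.2 on 20-kPa viscoelastic gels. On this scale of total counts all 6 viscoelastic samples lay above all 6 elastic samples, though by as little as 42.7 against 42.5 CPM. Ogn, Omd, Aspn and Fmod were separate in the same way, but in CPM with TMM factors. Whether the tendon sums stay separate with these factors was not tested. With stiffness on elastic gels 1 of 3 tendon markers was called higher, beside 6.81% of all genes, and all 3 values were above 0. The values of the 9 members were all below 0 in that comparison. Mkx, a transcription factor of tendon, was called higher on viscoelastic gels at 2 kPa (0.93) and 20 kPa (0.52). It was the 1 tendon marker of 3 called at each stiffness, beside 8.77% and 17.4% of all genes. Tnmd, the tendon membrane protein tenomodulin, had 0.59 and 0.39 and passed only in the average over both stiffnesses (0.49, edgeR adjusted p = 0.0172). Scx, a defining factor of tendon cells, had 0.0028 and 0.04 and was called in no comparison. The part of tendon-like cells was not tested. Of 11 fibroblast markers, viscoelastic gels had 1 higher and 2 lower at 2 kPa, beside 8.77% and 11.1% of all genes. At 20 kPa 2 were higher and 2 lower, near the 17.4% and 16.1% of all genes. Their sum at 20 kPa was 23488 to 25146 CPM on elastic and 26611 to 28786 CPM on viscoelastic gels.

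The members also resembled one another over the 12 samples, in TMM log2 CPM with a prior count of 2. Pearson's r was 0.992 between Ogn and Omd, 0.962 between Aspn and Omd, 0.959 between Ogn and Aspn and 0.962 between Dcn and Podn. It was lowest between Lum and Prelp (0.195), and between the chromosome 10 neighbours Dcn and Lum it was 0.673. These values describe 12 samples that share their groups and so hold the group differences themselves. Of all tested genes, Omd was the most like Ogn and the reverse, followed by Pttg1 (0.983) and Frg1 (0.983) for Ogn and by Syf2 (0.982) and Nudt7 (0.981) for Omd. Fkbp7 (0.989), Itgbl1 (0.981) and Ginm1 (0.980) were most like Dcn, and Itgbl1 (0.981), Dipk1a (0.978) and Ecrg4 (0.971) most like Podn. The nearest to Lum were Fam180a (0.956), Vcam1 (0.949) and Fam117a (0.945), and to Bgn Mfap2 (0.972), Fxyd1 (0.969) and Cdkn1c (0.961). For Aspn they were Cd302 (0.968), Gpm6b (0.966) and Odr4 (0.963), for Fmod Usp11 (0.969), Casp12 (0.965) and Scara5 (0.963), and for Prelp Ppp1r3c (0.932), Car5b (0.918) and Ntf5 (0.914).

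Of the 10 other family genes, 8 were tested, with group means of at most 37.6 CPM. On viscoelastic gels 3 were called lower and none higher at 2 kPa, beside 11.1% and 8.77% of all genes. At 20 kPa 3 were higher and 1 was lower, beside 17.4% and 16.1%. With stiffness on elastic gels 5 were lower, beside 7.14% of all genes, and on viscoelastic gels none passed. The interaction was positive for 5 of 8, all of which passed, beside 4.45% of all genes. The median interaction of the 8 was 0.88, beside 0.42 for the 9 members and 0.017 over all genes. The chromosome 10 neighbours of Lum shared its sign of interaction. Epyc, which encodes epiphycan of cartilage, had −0.91 between gel types at 2 kPa, 0.82 at 20 kPa and an interaction of 1.72 (edgeR adjusted p = 0.000437). Kera, which encodes the corneal proteoglycan keratocan and stayed under 1 CPM in each group's mean, had an interaction of 1.88 (edgeR adjusted p = 0.0278). Dcn, on the other side of Lum, had 0.42 and did not pass. Ecm2, beside Aspn, rose on viscoelastic gels at 20 kPa by 0.85 (edgeR adjusted p = 0.000155) and had −0.072 at 2 kPa, with an interaction of 0.92 (edgeR adjusted p = 0.00252). Chad, whose product chondroadherin binds cartilage cells, fell on viscoelastic gels at 2 kPa, with a log2 fold change of −1.04, and Tsku, which encodes the secreted signalling inhibitor tsukushi, had −0.24 at 20 kPa, where it was called lower.

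**Figure D5:**
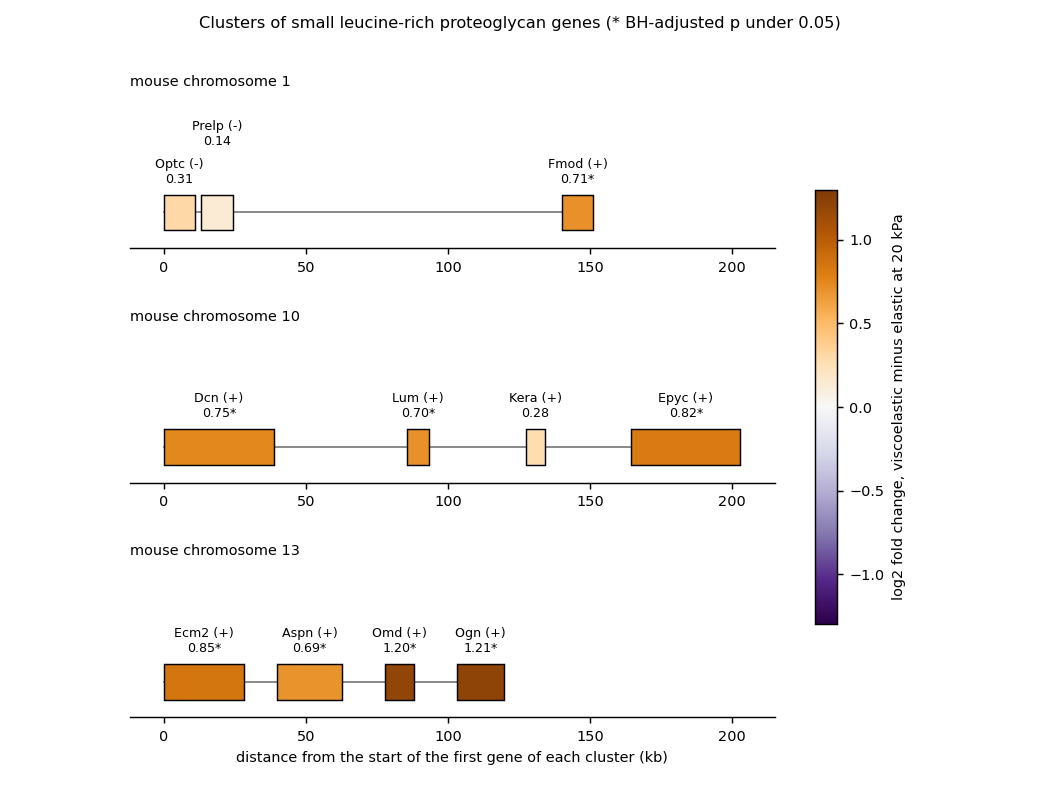
Family genes of the clusters on chromosomes 1, 10 and 13, drawn to scale by distance from the start of the first gene, with the strand and the log2 fold change between viscoelastic and elastic gels at 20 kPa above each gene and as its colour. All 4 genes on chromosome 13 were called higher, from 0.69 for Aspn to 1.21 for Ogn, whereas Prelp and Optc on chromosome 1 and Kera on chromosome 10 were not called.

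Genes that build the sugar chains of the family were called lower more often than higher. Of 22 tested genes for the linker and for chondroitin or dermatan sulfate synthesis, viscoelastic gels had 13 lower and none higher at 2 kPa, and 10 lower and 2 higher at 20 kPa. Their median log2 fold changes were −0.25 and −0.17, beside the values near 0 over all genes, of which 8.77% were called higher and 11.1% lower at 2 kPa and 17.4% and 16.1% at 20 kPa. Chsy3, a chondroitin synthase, fell at 2 kPa with −0.65 (edgeR adjusted p = 0.000131), and at 20 kPa Chpf2, a chondroitin polymerizing factor, fell with −0.43 while Csgalnact1, which starts the chain, rose by 0.40. With stiffness on elastic gels 1 was higher (Dse, a dermatan sulfate epimerase, 0.30) and 6 were lower (Ust, a uronyl sulfotransferase, −0.59), beside 6.81% and 7.14% of all genes. On viscoelastic gels none passed.
Among 6 keratan sulfate genes, Chst2, a sulfotransferase, had the same signs as Lum in the 4 comparisons, with −1.01 between gel types at 2 kPa and 0.75 at 20 kPa, and −1.26 with stiffness on elastic and 0.49 on viscoelastic gels, each of them called. The list as a whole had 0 higher and 1 lower at 2 kPa and 2 higher and 2 lower at 20 kPa, where B4galt1, a galactosyltransferase, fell with −0.38, and Chst1, another sulfotransferase, rose with stiffness on elastic gels by 0.71. With stiffness 1 was higher and 1 lower on elastic gels, and 1 was higher on viscoelastic gels. Of 5 genes that supply the sulfate donor, 2 were lower at 2 kPa, among them the sulfate transporter Slc26a2 (−0.36, and −0.39 with stiffness on elastic gels), and 1 was higher at 20 kPa, the donor synthase Papss2 (0.39). With stiffness 2 of them were lower on elastic gels and none passed on viscoelastic gels. Over all genes, 8.77% were called higher and 11.1% lower at 2 kPa, and 17.4% and 16.1% at 20 kPa. With stiffness the shares were 6.81% and 7.14% on elastic and 1.58% and 0.695% on viscoelastic gels.

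Collagens, to whose fibrils the family binds, were called in part. Of 12 genes, viscoelastic gels had 3 lower and none higher at 2 kPa, beside 11.1% and 8.77% of all genes. At 20 kPa 3 were lower and 3 higher, beside 16.1% and 17.4% of all genes. With stiffness 5 were lower on elastic gels, beside 7.14% of all genes, and 1, Col14a1, was higher on viscoelastic gels, beside 1.58%. Col14a1, which encodes a fibril-associated collagen, fell at 2 kPa with −0.82 and rose at 20 kPa by 0.71, and it had −1.07 with stiffness on elastic and 0.46 on viscoelastic gels. Col6a3, of the microfibrillar collagen VI, fell at 20 kPa with −0.81 (edgeR adjusted p = 0.000252). Among 13 tested ligands and receptors that family proteins bind, 1 was higher and 8 were lower at 2 kPa, beside 8.77% and 11.1% of all genes. At 20 kPa 2 were higher and 5 lower, beside 17.4% and 16.1%. With stiffness 3 were lower on elastic gels, beside 7.14%, and none passed on viscoelastic gels. Tgfb1 fell at 2 kPa with −0.84 while Ccn2, a matricellular target of TGF-β, rose by 0.57. At 20 kPa Met, a receptor bound by decorin, fell with −0.82 and Egfr, another such receptor, rose by 0.42, and with stiffness on elastic gels Tgfb2 fell with −1.28.
Of 8 enzymes known to cleave family proteins, 1 was higher and 5 were lower at 2 kPa, beside 8.77% and 11.1% of all genes. At 20 kPa 0 were higher and 1 was lower, beside 17.4% and 16.1%. With stiffness 2 were higher and 2 lower on elastic gels, beside 6.81% and 7.14%, and none passed on viscoelastic gels. Adamts5, an aggrecanase, rose at 2 kPa by 1.32 and with stiffness on elastic gels by 0.98, the collagenase Mmp13 fell at 2 kPa with −1.44, Mmp2 fell with stiffness on elastic gels with −0.35, and Tll1, a processing protease of the BMP1 family, fell at 20 kPa with −0.74.
Other proteoglycan core proteins were mostly called lower. Of 16 tested, viscoelastic gels had 9 lower and 1 higher at 2 kPa, beside 11.1% and 8.77% of all genes. At 20 kPa 9 were lower and 2 higher, beside 16.1% and 17.4%. The medians were −0.41 and −0.32. With stiffness 3 were lower on elastic and 1 on viscoelastic gels, beside 7.14% and 0.695%. The cell-surface proteoglycans Sdc3 at 2 kPa (−0.65) and Gpc1 at 20 kPa (−0.69) had the lowest adjusted p among those that fell. Gpc3, a glypican, rose at 2 kPa by 0.57 and Srgn, the proteoglycan of secretory granules, at 20 kPa by 1.24. With stiffness, Gpc6, another glypican, fell on elastic gels with −0.51 and Spock2, a testican, on viscoelastic gels with −0.77. The difference between these lists and the 9 members was not tested.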

How the data were processed

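RNA of 12 samples was sequenced after poly-A selection and random-hexamer priming. The authors trimmed reads with Trimmomatic, aligned them to mm10 with STAR and obtained raw counts per gene from featureCounts and GENCODE, which were used as deposited. Which annotation release and strand setting they used, and how reads with several matches were handled, are not given in the sources used here. Groups follow the labels, and the study states biological replicates.

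Gene lengths, positions and overlaps were taken from GENCODE vM21. Genes passing filterByExpr of edgeR 4.0.16 (R 4.3.3; minimum count 10, minimum total 15) were fitted for all 12 samples with 1 coefficient per group and TMM factors of 0.968 to 1.03, and tested by quasi-likelihood. The common biological coefficient of variation was 7.50%. P-values were adjusted by the Benjamini-Hochberg (BH) method, and genes under 0.05 were called whatever their fold. Companion and marker lists were counted whole, and from each companion list the called gene that rose and the one that fell with the lowest adjusted p in each comparison of a pair of groups were named. For each member the 3 genes with the highest Pearson correlation over the 12 samples were named. Members and lists were chosen with earlier results of these data known. Alternatives were scaling by DESeq2 (1.42.0) size factors or by totals, no expression filter, DESeq2's Wald test, an adjusted p under 0.01, a replicate block, fits of the groups compared alone, and leaving out each sample in turn. The fit was tested on simulated counts with known changes. Promoter sequences are from RefSeq.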

Additional observations from a re-analysis of the deposited data

Results flagged for a closer look

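Lum was singled out because its stiffness effect differed between elastic and viscoelastic gels by a test of the difference itself. The log2 fold change from 2 to 20 kPa was −0.66 on elastic and 0.43 on viscoelastic gels, and the interaction was 1.09 (SE 0.192, edgeR adjusted p = 0.00297, over 14542 genes).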

How the results depend on the processing

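Of the 21 calls of members over 6 comparisons, 17 were made under every alternative and 4 were lost under at least 1 (Bgn at 20 kPa and in the average, Aspn and Fmod at 2 kPa). Of 33 uncalled values, 13 were called under at least 1 alternative. The number of members called between gel types at 2 kPa, 4 in the report, was 7 without the expression filter, that is with every gene with a count (6 higher and Lum lower), 2 at an adjusted p under 0.01, and 2 to 6 when single samples were left out, with 2 without replicate 1 or replicate 2 of the 2-kPa elastic group and 6 without replicate 1 of the 2-kPa viscoelastic group. With stiffness on elastic gels it was 1, and 1 to 2 with samples left out, Fmod being added without replicate 1 of the 2-kPa elastic group. With stiffness on viscoelastic gels it was 0, but 4 with every gene with a count, 1 with DESeq2's Wald test, and 0 to 1 with samples left out, Lum passing without replicate 2 of the 2-kPa viscoelastic group. For the interaction it was 1, but 4 with every gene with a count (Lum, Ogn, Omd and Podn), 2 with DESeq2's Wald test (Lum and Bgn), and 1 to 2 with samples left out, Ogn being added without replicate 1 of the 20-kPa elastic group. The cause of these shifts was not tested. The counts at 20 kPa (7 to 8) and in the average (6 to 8) stayed within 1.5 times of those reported.

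Values that reversed in sign were all uncalled. With samples left out, stiffness on elastic gels gave −0.15 to 0.017 for Prelp, −0.27 to 0.033 for Ogn, −0.25 to 0.035 for Aspn and −0.22 to 0.11 for Omd, and the interaction of Prelp ran from −0.096 to 0.074. Stiffness on viscoelastic gels gave Fmod −0.0050 with DESeq2 size factors, −0.0045 with every gene with a count, −0.0044 with DESeq2's Wald test, −0.016 with the 6 viscoelastic samples alone, and −0.090 to 0.069 with samples left out.

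Over all genes, counts of calls moved by more than 1.5 times at an adjusted p under 0.01 (1352 of 2892 for gel type at 2 kPa, 2733 of 4866 at 20 kPa, 855 of 2029 for stiffness on elastic and 9 of 331 on viscoelastic gels, 3730 of 5817 for the average and 400 of 1100 for the interaction). For stiffness on viscoelastic gels they were 653 with every gene with a count, 757 with DESeq2, 154 with the replicate block and 38 with the 6 samples alone. With samples left out the lowest were 1545, 3177, 1063, 9 and 670 for gel type at 2 and 20 kPa, stiffness on elastic and viscoelastic gels and the interaction.

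Over the 18 same-numbered pairs of samples, deviations from the group means correlated at −0.200 to 0.308 across genes (mean −0.0248). The 2 pairs over 0.1 were both between the viscoelastic groups, at 0.184 for replicates 1 and 0.308 for replicates 2. The numbers thus do not pair the samples across all groups, and pairing within the viscoelastic groups alone was not tested. With the replicate block the numbers of members called were 3, 8, 1, 0, 6 and 1 for gel type at 2 and 20 kPa, stiffness on elastic and viscoelastic gels, the average and the interaction. The block ended the calls of Aspn at 2 kPa (0.47, edgeR adjusted p = 0.0522) and of Bgn in the average (0.16, edgeR adjusted p = 0.0715) and changed no other member's call.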
